A study of Mus musculus with 6 samples.

Results

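This account concerns 34 genes of cholesterol synthesis, uptake, storage and efflux, chosen by symbol from the 55850 genes of an FPKM table of mouse testis. They comprise 18 enzymes from acetoacetyl-CoA to cholesterol, 5 genes of sterol-regulated transcription, 5 of uptake and intracellular transport, 1 of storage and 5 of efflux and its nuclear receptors. All 34 were found in the table, and 33 had a mean of at least 1 FPKM (a read density corrected for gene length and library size) and entered the test. The remaining member, Nr1h3, had 5 to 29 reads per library. Whole testis was sequenced in 6 libraries, 3 of genotype cKO and 3 of genotype WT, all untreated. Per the series title, Srsf2, a gene for a pre-mRNA splicing factor, was deleted in Sertoli cells, the somatic nurse cells of the seminiferous tubule. The Cre driver, alleles, strain, age and what the WT animals carried were not given in the sources used here. Nothing in the labels ties each library to its own animal, and the p-values therefore describe library-to-library spread that may be technical.

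Cholesterol is built from acetyl-CoA through mevalonate and squalene to lanosterol, and lanosterol is then trimmed and reduced to cholesterol. The transcription factor SREBP2, encoded by Srebf2, drives most of these enzymes when SCAP carries it out of the endoplasmic reticulum, and INSIG proteins hold SCAP back when sterols are plentiful. When sterols are in excess, the oxysterol receptors LXR alpha and LXR beta raise the exporters ABCA1 and ABCG1. In the testis, Leydig cells use cholesterol to make testosterone, Sertoli cells take up lipid from dying germ cells, and an intermediate after lanosterol is known as a meiosis-activating sterol.

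The targeted gene was measured first. Srsf2 stood at 74.0, 87.3 and 87.3 FPKM in the cKO libraries, against 127, 96.7 and 101.8 FPKM in the WT libraries. Each cKO library was below each WT library, but the log2 difference of -0.38 did not pass over all genes (limma adjusted p = 0.384). Depth was even, at 16185976 to 17281330 recovered reads in cKO and 16070287 to 16479907 in WT libraries. The 18S ribosomal RNA gene took 0.727 to 0.835% of reads in cKO and 1.58 to 2.09% in WT libraries, and mitochondrial genes 2.39 to 2.97% in cKO and 1.66 to 1.98% in WT. Defining Sertoli markers were present, at a summed level of 948 to 1140 FPKM in cKO and 1437 to 1885 FPKM in WT libraries. Of these 12 markers 0 passed over all genes (lowest limma adjusted p = 0.306, or 0.0596 with length and GC trends removed). At an unadjusted limma p under 0.05, 8 were lower, where 7.68% of all genes tested were lower. With length and GC trends removed 6 were lower at that limit, beside 8.50% of all genes in either direction. Negative differences were found for 12, or 10 with those trends removed. Summed levels overlapped between the groups for Leydig markers (1640 to 1885 FPKM in cKO, 1423 to 2092 FPKM in WT), for macrophage markers (67.2 to 111.2 FPKM in cKO, 67.9 to 86.5 FPKM in WT) and for germ cell markers (257 to 389 FPKM in cKO, 194 to 407 FPKM in WT). Of the 10 Leydig markers tested 6 had a positive difference, of 8 macrophage markers 5 and of 9 germ cell markers 9. At an unadjusted limma p under 0.05, 2 macrophage markers were lower and 0 higher. At that limit 1 Leydig and 2 germ cell markers were higher and 0 lower, where 4.65% of all genes tested were higher. With length and GC trends removed, 2 macrophage markers were again lower, and 1 Leydig and 1 germ cell marker higher. Red blood cell markers were positive in 6 of 6 with a median of 0.64, and 0.79 with length and GC trends removed, at a summed 4864 to 6458 FPKM in cKO and 2714 to 5671 FPKM in WT libraries. Their part in the members' differences was not tested. No marker of any list was at 0 in all libraries. In whole testis, fewer cells of a type and less RNA per cell cannot be told apart.

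Sterol enzyme genes are controlled through promoter elements, so the windows of 4 members are shown: Idi1 and Apoe, which had the lowest p on the higher and the lower side, Hmgcs1, an early enzyme and the most abundant member, and Pmvk, added after its values were seen. Each window runs from 250 bases before to 50 bases after the gene start in RefSeq on GRCm38.p6, written 5′ to 3′ on the strand of the gene. They cover chr13:8885356-8885655 on the plus strand for Idi1, chr3:89454291-89454590 on the plus strand for Pmvk, chr7:19699139-19699438 on the minus strand for Apoe and chr13:119690101-119690400 on the plus strand for Hmgcs1. Capitals mark TCACNCCAC (a sterol regulatory element, bound by SREBP), CCAAT (bound by NF-Y, a partner of SREBP) and CACGTG (an E-box), searched on both strands, so that CCAAT on the opposite strand reads ATTGG. Pmvk and Apoe have other gene starts, whose windows are not shown. The other Pmvk window, chr3:89459321-89459620, holds none of these motifs, nor do the other Apoe windows.
Idi1: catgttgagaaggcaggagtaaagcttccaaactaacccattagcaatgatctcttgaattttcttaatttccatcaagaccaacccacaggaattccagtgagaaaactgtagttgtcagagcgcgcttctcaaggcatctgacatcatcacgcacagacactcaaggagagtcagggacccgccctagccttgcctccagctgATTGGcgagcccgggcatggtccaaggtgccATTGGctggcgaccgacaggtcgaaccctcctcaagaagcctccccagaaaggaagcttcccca
Pmvk: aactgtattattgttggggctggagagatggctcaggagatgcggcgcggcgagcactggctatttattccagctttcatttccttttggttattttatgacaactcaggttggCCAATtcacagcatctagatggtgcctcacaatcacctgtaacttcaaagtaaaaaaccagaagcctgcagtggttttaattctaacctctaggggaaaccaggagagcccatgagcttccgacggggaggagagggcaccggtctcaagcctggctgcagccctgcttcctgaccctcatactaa
Apoe: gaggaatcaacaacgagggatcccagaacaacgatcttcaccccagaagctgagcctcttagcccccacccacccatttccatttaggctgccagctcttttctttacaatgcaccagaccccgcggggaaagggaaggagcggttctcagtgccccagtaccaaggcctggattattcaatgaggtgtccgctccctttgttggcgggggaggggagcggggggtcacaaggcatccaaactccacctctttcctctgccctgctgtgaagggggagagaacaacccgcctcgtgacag
Hmgcs1: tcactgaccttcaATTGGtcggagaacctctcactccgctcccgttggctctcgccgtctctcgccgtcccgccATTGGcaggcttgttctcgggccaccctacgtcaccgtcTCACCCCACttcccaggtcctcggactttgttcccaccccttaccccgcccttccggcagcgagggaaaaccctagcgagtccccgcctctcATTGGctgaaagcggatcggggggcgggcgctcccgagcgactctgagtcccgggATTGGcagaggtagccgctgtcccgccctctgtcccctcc

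Among the members, the letters TCACNCCAC of the sterol regulatory element stood in Hmgcs1 alone, at bases 114 to 122 of its window. Only this spelling was searched, so any other form of the element was not counted. Windows were found for 27 of the 34 members, 7 of them with more than 1 window, and 1 of 27 members (3.70%) held TCACNCCAC in any window, against 1.49% of the 20963 genes of the table with a window. CCAAT stood in 14 of 15 synthesis enzymes (93.3%) and in 7 of 12 other members (58.3%), against 41.8% of all these genes. Idi1 had 2 copies and Hmgcs1 4, and Mvk 5, whose difference had the opposite sign to theirs. CACGTG stood in 6 of 27 members (22.2%) and in 8.64% of all these genes. Of the 10099 tested genes with a window, 1.38% held TCACNCCAC, 43.1% CCAAT and 12.0% CACGTG. These motifs do not overlap in the windows shown, and a match of letters is not a bound site.

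No member passed the test over all genes, and the members did not move as a block. The lowest adjusted p among the 33 was 0.372, in limma with Benjamini-Hochberg adjustment over 14238 genes, of which 2 (0.0140%) passed. At an unadjusted p under 0.05 there were 6 members, 3 higher (Idi1, Hsd17b7 and Soat1) and 3 lower (Mvk, Pmvk and Apoe), where 12.3% of all genes tested were under that limit, 4.65% higher and 7.68% lower. The groups did not overlap for 7 members, 3 higher and 4 lower, the addition being Srebf1, where 18.6% of all genes tested did not overlap, 8.69% higher and 9.92% lower. On the TPM scale, which sets every library to the same sum, 13 members did not overlap, 8 higher and 5 lower, beside 18.7% of all genes. The median log2 difference of the members was 0.11, beside 0.00 for all genes tested, and 21 members were positive and 12 negative, where 50.8% of all genes tested were positive. Without WT replicate 1 the median was 0.0045 and 17 of 33 members were positive. The median size of the difference regardless of sign was 0.20 in the members and 0.16 over all genes tested. Member means in cKO testis ran from 59.7% to 148% of the WT mean. The typical 95% interval reached 0.33 log2 units to either side, and for 13 members it lay wholly within 0.5 log2 units of 0, while the interval of the other 20 tested members reached past that size.

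**Figure D1:**
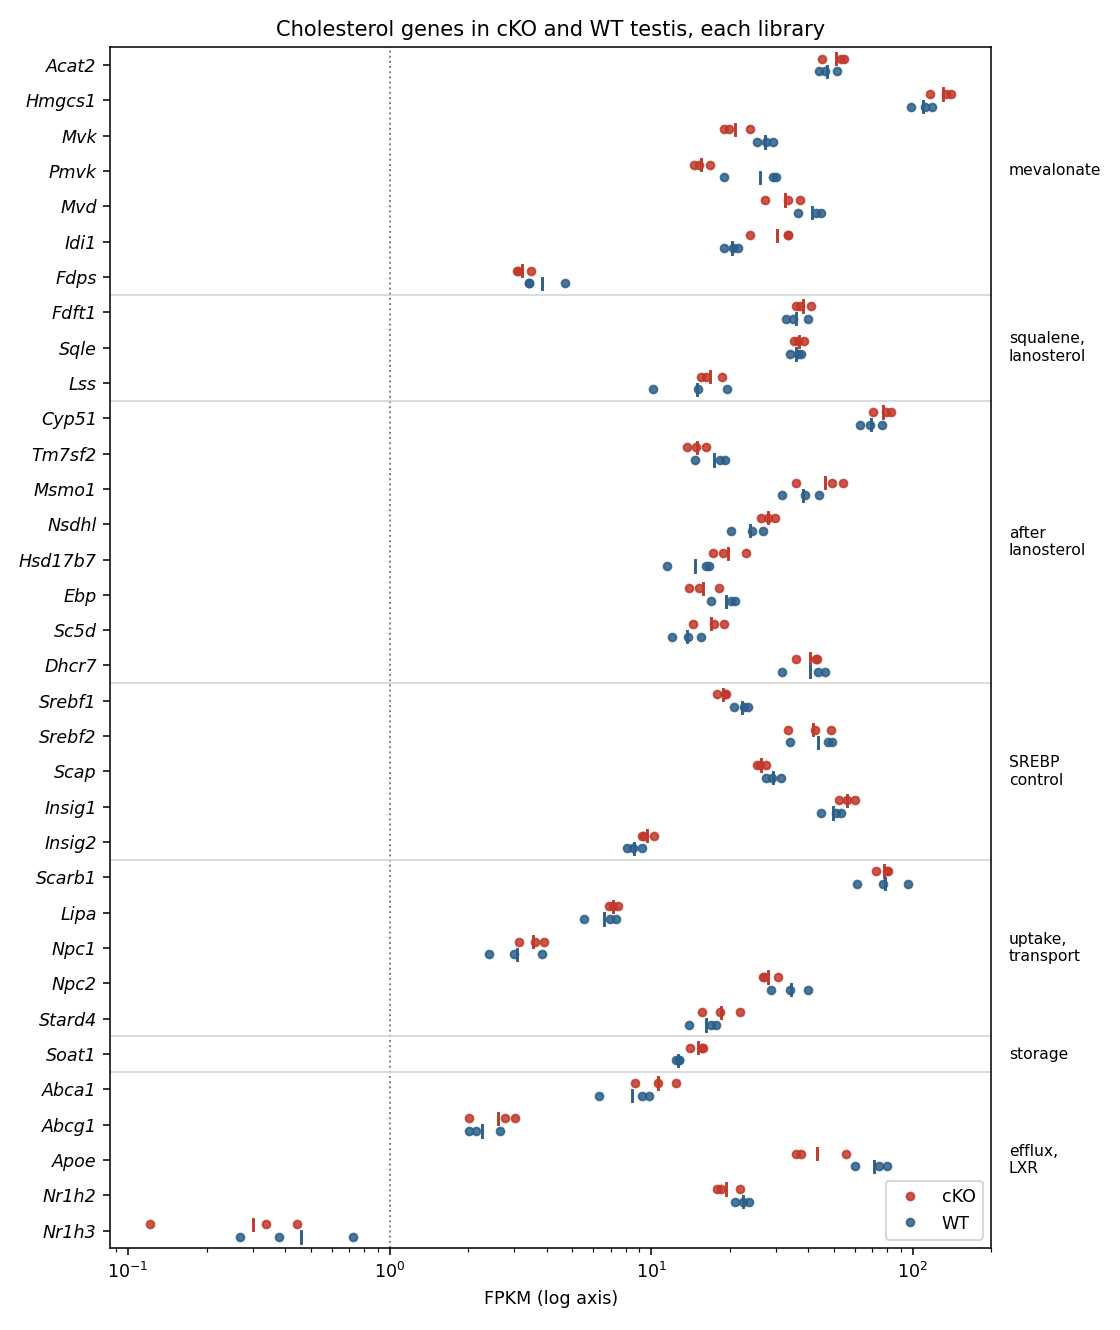
FPKM of the 34 members in each library on a log axis, in pathway order, with cKO libraries (red) above WT libraries (blue), short vertical bars at group means and a dotted line at 1 FPKM. Hmgcs1 is the most abundant member and Nr1h3 alone lies below 1 FPKM, and the groups are apart for Mvk, Pmvk, Idi1, Hsd17b7, Srebf1, Soat1 and Apoe.

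The mevalonate steps held the largest differences of the enzymes, and they ran in opposite directions along the same chain. Idi1, the isomerase that makes the activated isoprene unit, was higher in cKO testis, whereas the kinases Mvk and Pmvk, which act earlier in the chain, were lower. Idi1 (chr13:8885501-8892451, plus strand, GRCm38) stood at 23.9, 33.3 and 33.5 FPKM in cKO libraries, against 19.1, 20.6 and 21.5 FPKM in WT libraries. All cKO libraries were above all WT libraries, and cKO replicate 1 was close to the WT range. Its mean was 30.2 ± 5.48 FPKM in cKO and 20.4 ± 1.26 FPKM in WT (SD, n = 3 each), a log2 difference of 0.53 (limma adjusted p = 0.372, SE 0.15, interval at 95% from 0.18 to 0.88), with an exact two-sided permutation p of 0.1, the smallest that 3 against 3 can give.

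Pmvk, phosphomevalonate kinase (chr3:89454541-89469013, plus strand), stood at 16.8, 15.3 and 14.6 FPKM in cKO libraries, against 29.1, 19.0 and 30.1 FPKM in WT libraries. The cKO libraries were close together and all below WT replicate 2, the lowest of a wide WT group. The mean was 15.6 ± 1.13 FPKM in cKO and 26.1 ± 6.19 FPKM in WT (SD, n = 3 each), or 59.7% of the WT mean, a log2 difference of -0.68 (limma adjusted p = 0.372, SE 0.18, interval at 95% from -1.10 to -0.27). Mvk, mevalonate kinase (chr5:114444269-114460591, plus strand), stood at 23.8, 19.8 and 19.0 FPKM in cKO libraries, against 29.3, 25.5 and 27.4 FPKM in WT libraries. Its groups did not overlap either, at a log2 difference of -0.38 (SE 0.13, limma adjusted p = 0.379). The 2 genes were set against each other within each library, which removes library scaling but not a library's GC trend. Idi1 was 1.42, 2.18 and 2.29 times the FPKM of Pmvk in cKO libraries and 0.654, 1.09 and 0.715 times in WT libraries. Idi1 thus exceeded Pmvk in every cKO library and in WT replicate 2. The GC content of the longest transcript is 41.9% for Idi1 and 57.0% for Pmvk, so a GC trend enters this ratio. The ratio was chosen after its values were seen and carries no test.

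The other mevalonate enzymes overlapped between the groups. Hmgcs1, HMG-CoA synthase, had 117, 141 and 134 FPKM in cKO libraries, against 119, 98.4 and 111 FPKM in WT libraries. Its lowest cKO library lay inside the WT range, at a log2 difference of 0.25 (95% interval -0.06 to 0.57). Mvd, the decarboxylase between Pmvk and Idi1, averaged 32.6 ± 5.03 FPKM in cKO and 41.3 ± 4.25 FPKM in WT (SD, n = 3 each), at a log2 difference of -0.34 and an interval from -0.68 to 0.01. Acat2, the cytosolic thiolase that opens the pathway, averaged 50.9 ± 5.06 FPKM in cKO and 47.1 ± 3.91 FPKM in WT. Its paralog Acat3 stayed under 0.5 FPKM in every library, far below Acat2 itself. Of the 7 mevalonate genes, 3 had a positive and 4 a negative difference.

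Fdps, farnesyl diphosphate synthase, was the least abundant of the 18 enzymes, at 3.21 ± 0.222 FPKM in cKO and 3.83 ± 0.733 FPKM in WT (SD, n = 3 each), below Idi1 and Fdft1, the enzymes just before and after it. A processed pseudogene, Gm3571, carries the same protein entry in the deposited descriptions. Gm3571 was listed at 25.0, 30.0 and 24.5 FPKM in cKO libraries and at 36.2, 20.96 and 30.5 FPKM in WT libraries. Of the reads of the pair, 32.99%, 28.8% and 36.0% were counted for Fdps in the cKO libraries, and 27.2%, 39.3% and 37.9% in the WT libraries. How the authors' counting divided reads between such copies is not stated, so the level of Fdps is uncertain. The processed pseudogene Idi1-ps1 was at 1.63, 2.82 and 3.05 FPKM in cKO libraries and 1.19, 1.65 and 1.97 FPKM in WT libraries, at most 3.05 FPKM, and any reads it shares with Idi1 are uncertain.

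The squalene and lanosterol steps had the smallest median size of difference among the enzyme steps, at 0.08. Fdft1, squalene synthase, had 35.9, 40.9 and 37.0 FPKM in cKO libraries, against 39.8, 32.8 and 34.9 FPKM in WT libraries, with each range reaching into the other. Its log2 difference was 0.08 (95% interval -0.20 to 0.36), and it shares 774 exon bases with Ctsb on the opposite strand, so its reads are uncertain if strand was not used. Sqle, squalene epoxidase, a controlling step of the sterol branch, averaged 36.8 ± 1.71 FPKM in cKO and 35.9 ± 1.71 FPKM in WT (SD, n = 3 each). The interval of its log2 difference, -0.21 to 0.28, was among the narrowest of the members. Lss, lanosterol synthase, averaged 16.8 ± 1.64 FPKM in cKO and 14.9 ± 4.65 FPKM in WT, and WT replicate 1 was the low library at 10.2 FPKM.

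After lanosterol, 6 of 8 enzymes had a positive difference, and Hsd17b7 was the member whose groups were apart. Hsd17b7, the ketoreductase that finishes removal of the methyl groups (chr1:169949535-169969241, minus strand), stood at 17.3, 18.8 and 23.1 FPKM in cKO libraries, against 11.5, 16.2 and 16.6 FPKM in WT libraries. The gap between the groups was small beside the spread within each, at a log2 difference of 0.40 (limma adjusted p = 0.404, SE 0.17, interval at 95% from 0.01 to 0.80). The enzymes of the same demethylation complex had log2 differences of 0.27 for Msmo1, the methyl oxidase, and 0.24 for Nsdhl, the sterol dehydrogenase, with overlapping groups. Cyp51, the lanosterol demethylase, had 70.5, 79.2 and 82.6 FPKM in cKO libraries, against 68.5, 63.1 and 76.5 FPKM in WT libraries, with overlap and a log2 difference of 0.16. Sc5d, the desaturase, averaged 16.9 ± 2.32 FPKM in cKO and 13.8 ± 1.78 FPKM in WT (SD, n = 3 each). Ebp, the sterol isomerase, and Tm7sf2, a sterol reductase, ran the other way, at log2 differences of -0.28 and -0.20 and 15.8 and 15.0 FPKM on average in cKO against 19.4 and 17.4 FPKM in WT. Dhcr7, the reductase of the last step, averaged 40.6 ± 3.96 FPKM in cKO and 40.4 ± 7.82 FPKM in WT, a log2 difference of 0.02 with an interval from -0.36 to 0.40.

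**Figure D2:**
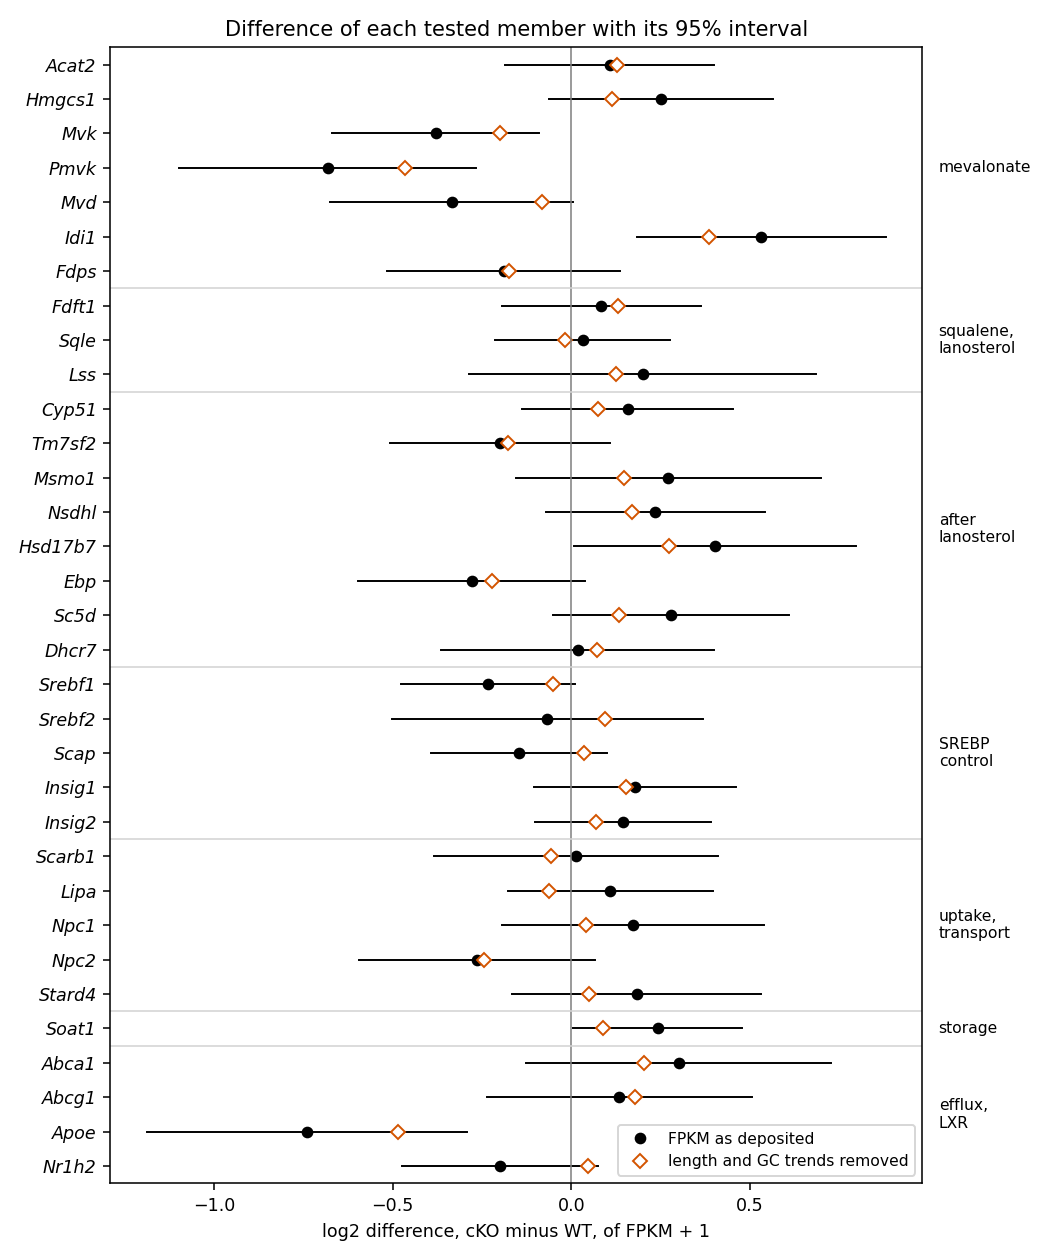
Log2 difference, cKO minus WT, of FPKM + 1 for the 33 tested members in pathway order. Filled circles with lines show the deposited FPKM with its 95% interval, and open diamonds the value after each library's trends on gene length and GC content were removed. Pmvk and Apoe lie farthest below 0 and Idi1 farthest above, and most diamonds lie nearer to 0 than their circles.

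Among the 5 controlling genes, the groups overlapped for 4. Srebf1, whose product mainly drives fatty acid synthesis (chr11:60199089-60222581, minus strand), stood at 19.2, 17.9 and 19.3 FPKM in cKO libraries, against 22.7, 20.8 and 23.4 FPKM in WT libraries. The groups were apart by a narrow margin, with a log2 difference of -0.23 (SE 0.11, limma adjusted p = 0.410) that was -0.05 once length and GC trends were removed. Srebf2, the main driver of sterol enzymes, averaged 41.5 ± 7.62 FPKM in cKO and 43.6 ± 8.33 FPKM in WT (SD, n = 3 each), and its log2 difference of -0.07 took the opposite sign in some settings. Scap, the escort, averaged 26.4 ± 1.08 FPKM in cKO and 29.4 ± 1.92 FPKM in WT, and shares 985 exon bases with 5830462I19Rik on the opposite strand. Insig1, itself a target of SREBP, had 52.4, 56.1 and 60.3 FPKM in cKO libraries, against 44.6, 51.0 and 53.5 FPKM in WT libraries, so that cKO replicate 1 was just below WT replicate 3, at a log2 difference of 0.18. Insig2 averaged 9.63 ± 0.580 FPKM in cKO and 8.63 ± 0.566 FPKM in WT.

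Uptake and transport genes overlapped between the groups throughout. Scarb1, the receptor that takes cholesteryl ester from high-density lipoprotein, had 79.9, 72.8 and 80.7 FPKM in cKO libraries, against 61.4, 77.1 and 96.3 FPKM in WT libraries. The WT range enclosed the cKO range, and the log2 difference was 0.01 (95% interval -0.38 to 0.41). Leydig markers were also highest in WT replicate 3, at a summed 2092 FPKM, and their part in the Scarb1 values was not tested. That library held the highest WT value for 23 of the 33 tested members. Npc2, the lysosomal carrier, averaged 28.1 ± 2.05 FPKM in cKO and 34.2 ± 5.66 FPKM in WT (SD, n = 3 each). Its membrane partner Npc1 averaged 3.55 ± 0.390 FPKM in cKO and 3.07 ± 0.712 FPKM in WT, at log2 differences of -0.26 for Npc2 and 0.17 for Npc1. Lipa, the lysosomal acid lipase, averaged 7.18 ± 0.264 FPKM in cKO and 6.62 ± 0.943 FPKM in WT, and Stard4, a cytosolic sterol carrier, 18.6 ± 3.09 FPKM in cKO and 16.2 ± 1.95 FPKM in WT.

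Storage was represented by Soat1, which esterifies cholesterol (chr1:156424525-156474331, minus strand). It stood at 14.1, 15.7 and 15.6 FPKM in cKO libraries, against 12.4, 12.8 and 12.8 FPKM in WT libraries. The WT libraries were almost level and every cKO library was above them, at a log2 difference of 0.24 (limma adjusted p = 0.404, SE 0.10, interval at 95% from 0.01 to 0.48). With length and GC trends removed the difference was 0.09.

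Among efflux genes, Apoe had the largest difference, and on the log2(FPKM + 1) scale the largest of all tested members, though Pmvk was lower as a percentage of the WT mean. Apoe encodes the apolipoprotein that receives exported cholesterol (chr7:19696109-19699188, minus strand), and it stood at 55.8, 37.4 and 35.7 FPKM in cKO libraries, against 74.2, 60.5 and 79.8 FPKM in WT libraries. Replicates 2 and 3 of cKO were far below the WT range, and cKO replicate 1 was just below it. The mean was 43.0 ± 11.1 FPKM in cKO and 71.5 ± 9.96 FPKM in WT (SD, n = 3 each), or 60.1% of the WT mean, a log2 difference of -0.74 (limma adjusted p = 0.372, SE 0.19, interval at 95% from -1.19 to -0.29). Macrophages and Leydig cells are known to make apolipoprotein E. The summed levels of both marker lists overlapped between the groups. However, 2 of 8 macrophage markers were lower and 0 higher at an unadjusted limma p under 0.05, where 7.68% of all genes tested were lower. Of 10 Leydig markers 1 was higher and 0 lower at that limit. The part of these cells in the Apoe difference was not tested. Sertoli markers had differences of the same sign as Apoe, Pmvk and Mvk, and their part in these differences was not tested either. Of the endothelial markers 5 of 6 had a negative difference. At an unadjusted limma p under 0.05, 2 were lower, where 7.68% of all genes tested were lower. With length and GC trends removed 1 was lower at that limit, beside 8.50% of all genes in either direction. The endothelial markers summed to 75.5 to 82.7 FPKM in cKO and 82.7 to 94.5 FPKM in WT libraries. Their mean log2 deviation was -0.07, -0.10 and -0.09 in cKO libraries and 0.01, 0.10 and 0.15 in WT libraries, without overlap. Their part was not tested.

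The exporters had differences of the opposite sign to that of Apoe, with overlapping groups. Abca1 averaged 10.6 ± 1.88 FPKM in cKO and 8.46 ± 1.88 FPKM in WT (SD, n = 3 each), at a log2 difference of 0.30 (95% interval -0.13 to 0.73). Abcg1 averaged 2.60 ± 0.528 FPKM in cKO and 2.26 ± 0.338 FPKM in WT. Of the receptors, Nr1h2, encoding LXR beta, averaged 19.4 ± 2.10 FPKM in cKO and 22.4 ± 1.43 FPKM in WT. Nr1h3, encoding LXR alpha, was listed at 0.443, 0.338 and 0.122 FPKM in cKO libraries and 0.725, 0.379 and 0.268 FPKM in WT libraries, too few reads for a comparison.

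The direction of a member went with the GC content of its transcript. All 18 members with a GC content of 50% or less in the longest GENCODE M21 transcript had a positive difference, with a median of 0.19, and of the 15 above 50% 12 had a negative difference, with a median of -0.20. Over all genes tested with a GC value, 74.4% of the 7126 at or below 50% and 25.9% of the 6819 above it were positive. Across the 33 members Spearman's rho between GC content and log2 difference was -0.84, and across 13945 genes -0.61, as descriptions over genes that share libraries. With each library's trends on length and GC content removed, rho was -0.50 across the members, -0.75 across the 18 enzymes and -0.01 across all genes. The 8 members in the highest GC quintile of all genes, among them Apoe, Pmvk, Mvk, Mvd and Srebf1, had a median of -0.28, where that quintile as a whole had -0.21. The 5 members in the lowest quintile, among them Idi1 and Hmgcs1, had a median of 0.28, against 0.20 for that quintile. In the quintile from 51.7 to 55.6% GC the 3 members went the other way. All 3 were positive, with a median of 0.08, against -0.10 for that quintile. The cut at 50% was chosen after the values were seen.

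**Figure D3:**
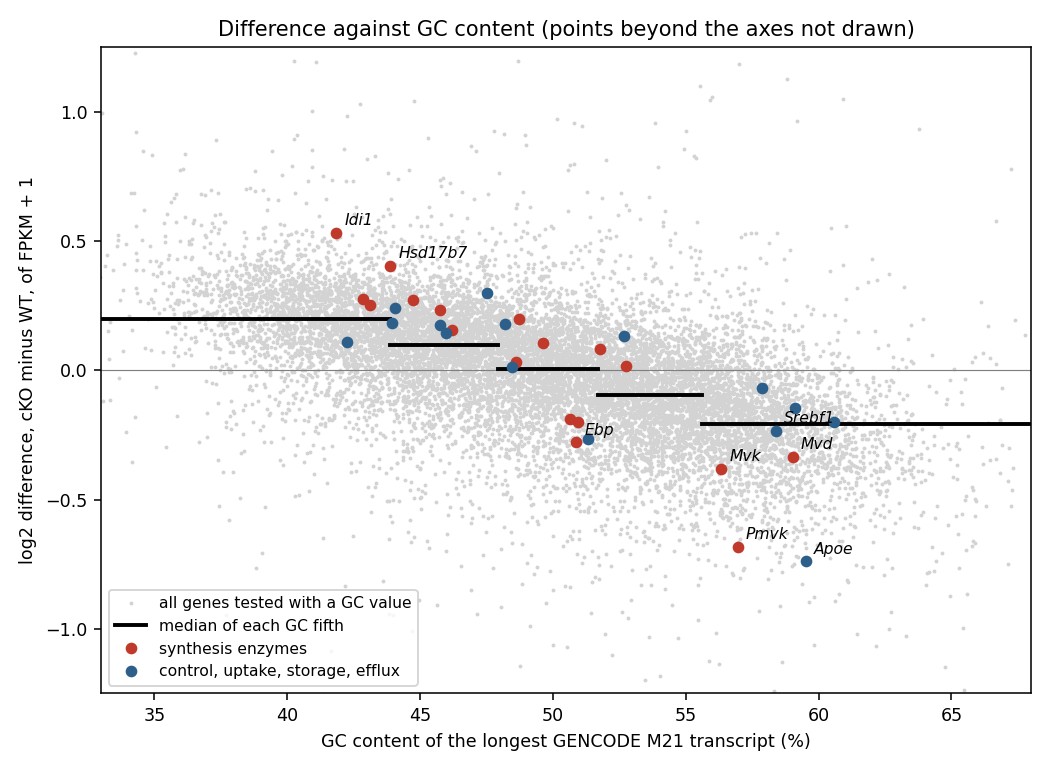
Log2 difference, cKO minus WT, of FPKM + 1 against GC content of the longest transcript, for all genes tested (grey), synthesis enzymes (red) and the other members (blue), with black bars at the median of each GC quintile. The medians step down from 0.20 in the lowest to -0.21 in the highest quintile. Members follow that slope in most quintiles, but the 3 between 51.7 and 55.6% GC all lie above 0. Idi1 lies above the slope and Pmvk and Apoe below it.

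The GC trend differed between libraries of the same group. In the highest GC quintile of all genes, the median deviation from the gene mean was 0.03, -0.18 and -0.17 in the cKO libraries and 0.13, 0.07 and 0.15 in the WT libraries. The 15 members above 50% GC stood at 0.02, -0.16 and -0.20 in the cKO libraries and 0.14, -0.01 and 0.19 in the WT libraries. The 18 members at or below 50% stood at -0.02, 0.13 and 0.18 in the cKO libraries and -0.27, -0.07 and 0.03 in the WT libraries. In both sets of members cKO replicate 1 lay near the middle, and cKO replicates 2 and 3 lay at the far side from WT. With each library's trends on length and GC content removed, Pmvk was at -0.46, Apoe at -0.48, Idi1 at 0.38, Mvk at -0.20 and Hsd17b7 at 0.27. These 5 members had groups that did not overlap, or 15.2% of the members tested, about the same share as the 14.9% of all genes in that fit. There 4 members were under an unadjusted p of 0.05, beside 8.50% of all genes, and 0 passed over all genes, beside 0.0215%. Positive differences were found for 21 of 33 members and for 51.3% of all genes. Mvd, Srebf1 and Soat1 shrank to -0.08, -0.05 and 0.09. The lowest adjusted p of a member in that fit was 0.489.

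**Figure D4:**
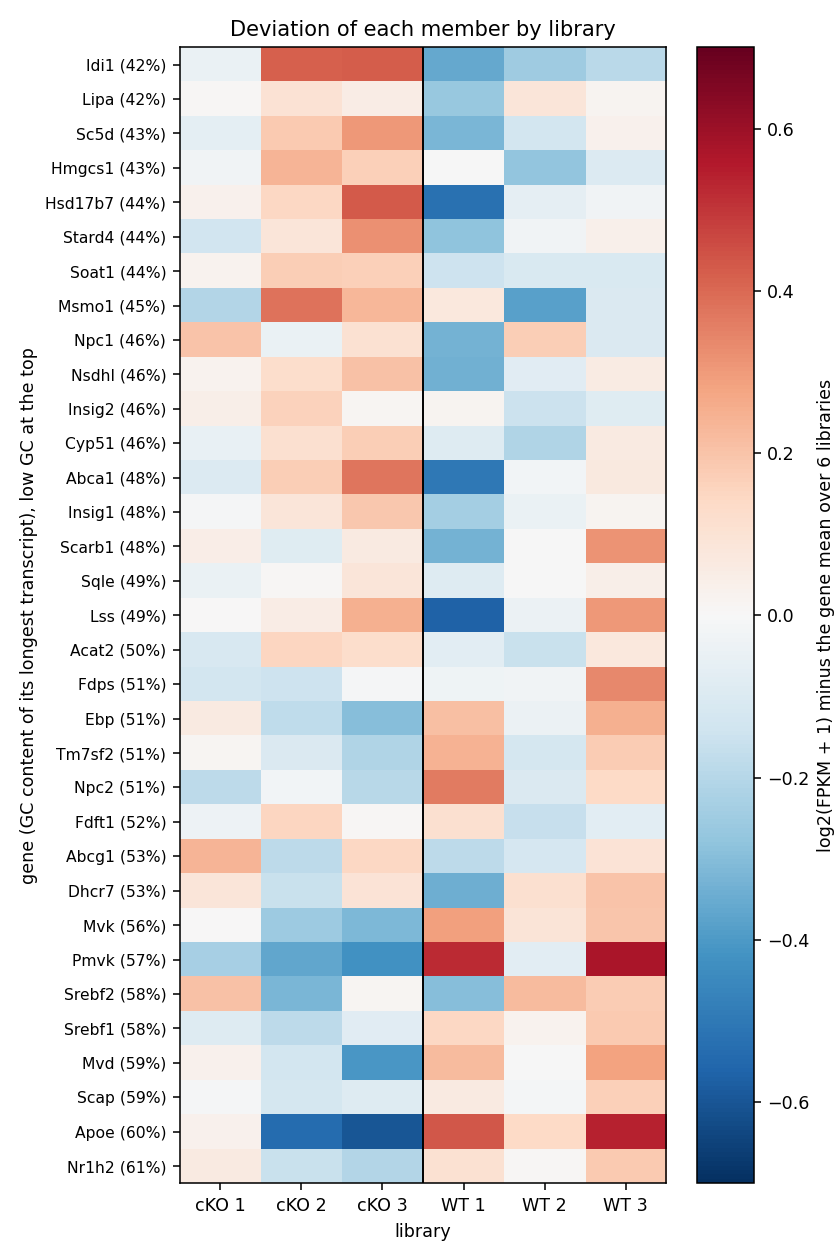
Deviation of log2(FPKM + 1) from the gene mean over the 6 libraries for the 33 tested members, cKO libraries left and WT libraries right, ordered by GC content from low (top) to high (bottom); red is above and blue below the gene mean. In cKO replicates 2 and 3 the upper genes are mostly red and the lower genes mostly blue, and cKO replicate 1 is pale.

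WT libraries differed among themselves over these genes. WT replicate 3 held the highest of the WT values for 23 of 33 members (69.7%), where it did so for 29.5% of all genes tested, and it held the lowest for 0 of 33, where it did so for 22.4% of all genes. WT replicate 1 held the lowest value for 17 members (51.5%), among them Lss, Hsd17b7, Abca1 and Scarb1, and for 40.8% of all genes. Summed over the 18 enzymes, the level was 595, 657 and 654 FPKM in cKO libraries and 599.8, 556 and 643 FPKM in WT libraries, with overlap. The 6 members under an unadjusted p of 0.05 became 11 when cKO replicate 1 was left out and 10 when WT replicate 2 was left out, where the share of all genes was 16.9% and 14.8%. They became 4 with WT replicate 1 left out (13.2% of all genes) and 5 with WT replicate 3 left out (7.70%). With cKO replicate 2 or cKO replicate 3 left out there were 3 members in each case, beside 5.37% and 5.23% of all genes. In each of these 6 fits 0 members passed over all genes.

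None of the other pathway genes passed the test over all genes. The list held 58 genes of the isoprenoid branch, SREBP processing, sterol transport and ester turnover, and fatty acid synthesis, and 53 were tested, with 0 higher and 0 lower past the threshold (lowest limma adjusted p = 0.379). At an unadjusted p under 0.05, 3 were higher and 3 lower, or 11.3% beside 12.3% of all genes tested. The groups did not overlap for 12, or 22.6% beside 18.6% of all genes. Of these 9 were higher and 3 lower, where 8.69% and 9.92% of all genes were. With length and GC trends removed 8 did not overlap, 3 higher and 5 lower, or 15.1% beside 14.9% of all genes. In that fit 1 was higher and 2 lower at an unadjusted p under 0.05, or 5.66% beside 8.50% of all genes. On the deposited scale 33 of 53 differences were positive with a median of 0.04. Nceh1, which hydrolyses cholesteryl ester, stood at 4.59, 5.54 and 5.06 FPKM in cKO libraries, against 3.23, 4.12 and 3.63 FPKM in WT libraries, a log2 difference of 0.38. Sec23a, of the vesicle coat that carries SCAP and SREBP, stood at a log2 difference of 0.37 and Elovl5, a fatty acid elongase, at 0.27, both with groups apart. Stard3, a late endosomal sterol carrier, was at 7.77 ± 0.836 FPKM in cKO and 9.91 ± 0.0801 FPKM in WT (SD, n = 3 each), and Gramd1a, which moves sterol from the plasma membrane, at a log2 difference of -0.24. Cyp27a1, the sterol hydroxylase that makes an LXR ligand, had 5.31, 4.83 and 5.92 FPKM in cKO libraries, against 15.7, 10.6 and 5.53 FPKM in WT libraries, with WT replicate 3 inside the cKO range. With length and GC trends removed, the log2 difference was 0.26 for Nceh1, 0.21 for Sec23a and 0.18 for Elovl5. It was -0.17 for Stard3, -0.11 for Gramd1a and -0.64 for Cyp27a1 in that fit. Of the fatty acid list 10 of 11 tested genes were positive, with a median of 0.11.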

How the data were processed

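Whole-testis RNA was extracted with Trizol and sequenced after a SMARTER mRNA library kit, per the labels' protocols. The authors deposited FPKM per gene and library, scaled to the gene length in the table; GRCm38 and mm10 are named in the submitters' processing notes, and aligner, counter, annotation and strand use were not given in the sources used here. Positions come from GENCODE M21 on GRCm38 by gene identifier, since 1499 of 52081 shared identifiers had the table's start. Multiplying FPKM by the table's length gave whole multiples of a library's unit read, within 0.01, for 100% of values, so reads were recovered; counts of reads cover counting error only. Differences, cKO minus WT, were tested in R 4.3.3 by limma 3.58.1 (trend on) using log2(FPKM + 1). This covered 14238 genes averaging 1 FPKM or more, at a Benjamini-Hochberg adjusted 0.05. With the pseudocount, folds of weakly expressed genes come out too small. Exact two-sided permutation tests used all 20 splits. GC content was known for 97.9% of tested genes. The fit was checked on simulated reads with planted changes larger than those of the members and with no GC trend. That check does not cover smaller changes or such a trend. Per-library values are given for members with groups apart or an unadjusted p under 0.05 and for the most abundant member of each step. The members and lists were chosen with earlier results of these data known. Alternatives were 2 pseudocounts, 2 filters, 3 scalings, no trend, voom, a length and GC correction, a replicate block and leaving out each library. Of 34 members 11 share exon bases with another annotated gene. Among them Idi1 shares 323 with Gm48574 and Hmgcs1 557 with Gm48342, both on the opposite strand. Fdps shares 1124 with Gm43738, Tm7sf2 532 with Vps51 and Nr1h3 34 with Gm13783, each on its own strand. Srebf1 also overlaps Mir6922 on its own strand. Reads in bases shared with the opposite strand are uncertain if strand was not used. Those in bases shared on the same strand are uncertain in either case. Motifs were searched in Python 3.11.15.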

Additional observations from a re-analysis of the deposited data

How the results depend on the processing

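No member passed over all genes in any of the 17 alternatives. The count of all genes past the threshold, 2, was 1 with a pseudocount of 0.1 or 0.5, at a minimum mean of 5 FPKM, on the TPM scale and with voom on recovered reads, 0 with no filter on low values and with the replicate block, and 0 to 0 on leaving out 1 library. The labels do not say whether the replicate numbers pair the samples. Deviations of same-numbered libraries correlated at 0.09, -0.33 and 0.39 over 14238 genes, and those of other pairs at -0.45 to 0.35. With 3 libraries per group these values cannot decide whether the samples are paired. With the replicate block the lowest adjusted p of a member was 0.351, and no other call changed. The 7 members with groups apart became 13 on the TPM scale (8 higher, 5 lower) and 11 with voom (7 higher, 4 lower), beside 18.7% and 17.5% of all genes. On leaving out 1 library they became 9 to 20: 11 without WT replicate 1 (34.3% of all genes), 14 without WT replicate 2 (33.9%), 12 without WT replicate 3 (25.2%), 20 without cKO replicate 1 (37.6%), and 9 when cKO replicate 2 (23.6%) or 3 (23.2%) was omitted, where fewer samples by construction make separation more frequent. The members' median ranged from 0.00452 to 0.145 on leaving out 1 library and was lowest without WT replicate 1. On the TPM scale all genes under an unadjusted p of 0.05 split into 900 higher and 741 lower, against 662 and 1094 on the deposited scale, and the members into 3 and 3 on both. With length and GC trends removed, Sqle turned to -0.0177, Srebf2 to 0.0937, Scap to 0.0351, Scarb1 to -0.0578, Lipa to -0.0633 and Nr1h2 to 0.0478. On leaving out 1 library the sign also turned for Sqle (-0.00551 to 0.0620), Lss (-0.0332 to 0.402), Dhcr7 (-0.15 to 0.12), Srebf2 (-0.232 to 0.0759) and Scarb1 (-0.15 to 0.17). The causes were not tested. The remaining 540 of 558 member values kept their direction, and none crossed the threshold. An unadjusted p under 0.05 was kept in 17 of 17 alternatives by Idi1, Pmvk and Apoe, in 15 by Mvk, in 10 by Hsd17b7 and in 9 by Soat1. These members were picked by their p in the main fit, and the alternatives reuse the same libraries. Such counts are therefore no independent support, and the share of all genes that kept this limit was not computed.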
